A study of Mus musculus with 5 samples.

Results

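The endothelial cells described here are 51 droplet barcodes among 22591 kept kidney barcodes, or 0.226% of them. A kept barcode had at least 200 genes and under 50% mitochondrial UMIs (unique molecular identifiers, each standing for 1 captured transcript), and 26237 barcodes had been deposited in all. A member had at least 3 UMIs from at least 2 of the genes Plvap, Emcn, Egfl7, Pecam1 and Kdr, no UMI of Ptprc, Cd79a, Cd3d, Cd3e or Cd3g, and fewer than 2 UMIs of Lyz2. These genes chose the members, so their levels are given as a description and were not tested.

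The libraries came from kidneys of C57BL/6j mice in which lupus-like disease had been induced with pristane, a hydrocarbon oil, in every animal. Saline had been given to 2 mice and faecal microbiota transplantation (FMT) from MRL/MpJ donors to 3 mice. Neither ages nor sexes of the mice, nor a group without pristane, are given in the sources used here. The labels name tubular epithelial cells and B cells as the cells collected. How the 51 endothelial barcodes came to be in the libraries was not tested. By its title, the series concerns inosine made by the microbiota and the differentiation and migration of B cells.

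Endothelial cells line every vessel of the kidney. Those of the glomerular and peritubular capillaries are fenestrated, and the latter take back what the tubules reabsorb. Growth and survival of the lining depend on vascular endothelial growth factor, which reaches the receptors Kdr and Flt1 from neighbouring epithelium, and on the angiopoietin receptor Tek. Arteries and arterioles have a continuous lining with tight junctions.

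The rule genes are listed with positions in GENCODE M21 (GRCm38, mm10), and a UMI count covers all exons of a gene. Plvap, the protein of the diaphragms that span endothelial fenestrae, lies on chr8:71497765-71511752 on the minus strand. Emcn, the sialomucin endomucin of capillaries and veins, lies on chr3:137341067-137432185 on the plus strand. Egfl7, a protein secreted by endothelium, lies on chr2:26580014-26593120 on the plus strand. Pecam1, an adhesion molecule of endothelial junctions that leukocytes and platelets also make, lies on chr11:106654217-106750628 on the minus strand. Kdr, the main signalling receptor for vascular endothelial growth factor, lies on chr5:75932827-75978458 on the minus strand.

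The promoters that RefSeq (GRCm38.p6) holds for these genes are shown, from 250 bases before to 50 bases after a start. Joint detection of at least 2 of the genes was required by the rule and is not a result. Promoters were matched by symbol for 3 of the 5 genes, Emcn, Egfl7 and Kdr. Capitals mark AGGAAG or its reverse complement CTTCCT, letters that contain the core bound by ETS transcription factors, a family that includes endothelial regulators such as Erg. The Emcn promoter is chr3:137340828-137341127 on the plus strand, the Egfl7 promoter shown, 1 of 3 in the table, is chr2:26583615-26583914 on the plus strand, and the Kdr promoter is chr5:75978406-75978705 on the minus strand.
Emcn: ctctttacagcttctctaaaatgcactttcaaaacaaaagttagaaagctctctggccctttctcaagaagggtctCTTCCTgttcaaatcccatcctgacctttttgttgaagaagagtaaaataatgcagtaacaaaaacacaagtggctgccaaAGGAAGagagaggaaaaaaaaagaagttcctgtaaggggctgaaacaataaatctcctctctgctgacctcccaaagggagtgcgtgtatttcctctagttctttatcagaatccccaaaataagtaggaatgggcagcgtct
Egfl7: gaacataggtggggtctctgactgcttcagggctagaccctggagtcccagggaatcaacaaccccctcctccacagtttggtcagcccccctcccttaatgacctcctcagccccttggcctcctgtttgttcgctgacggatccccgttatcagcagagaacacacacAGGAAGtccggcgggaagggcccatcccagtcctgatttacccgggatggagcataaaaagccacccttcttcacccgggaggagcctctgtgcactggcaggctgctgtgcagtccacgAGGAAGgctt
Kdr: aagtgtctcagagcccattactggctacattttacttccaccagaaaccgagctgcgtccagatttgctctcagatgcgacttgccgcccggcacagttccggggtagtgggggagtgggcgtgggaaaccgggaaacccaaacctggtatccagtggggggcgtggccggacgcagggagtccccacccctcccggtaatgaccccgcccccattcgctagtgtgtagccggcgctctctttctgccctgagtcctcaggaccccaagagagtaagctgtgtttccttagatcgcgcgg
The Emcn promoter held 2 matches, the Egfl7 promoter 2 and the Kdr promoter 0. Of 20 further endothelial genes, 12 had a promoter, and Egfl7 and Erg had more than 1 each. Over these and the rule genes, 12 of 19 promoters (63.2%) held at least 1 match, against 35.4% of all 32851 promoters of the same length. A match describes the letters of this window and is not shown to be a binding site.

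Members were few in every mouse. There were 4 of 5242 kept barcodes in saline mouse 1, 14 of 3273 in saline mouse 2, 3 of 6312 in FMT mouse 1, 11 of 4906 in FMT mouse 2 and 19 of 2858 in FMT mouse 3. As a percentage of kept barcodes this was 0.0763% (exact 95% binomial interval 0.0208 to 0.195) and 0.428% (0.234 to 0.717) in the saline mice. It was 0.0475% (0.0098 to 0.139), 0.224% (0.112 to 0.401) and 0.665% (0.401 to 1.04) in the FMT mice. The lowest and the highest share both came from FMT mice, and the groups overlapped throughout. The group means were 0.252% ± 0.249 (SD, n = 2) and 0.312% ± 0.318 (SD, n = 3), a difference of 0.0602 percentage points with a two-sided exact permutation p = 1.0, where the smallest p that 2 against 3 mice allow is 0.1. Intervals here and below cover counting error only, and a p-value speaks of the spread among the 5 mice alone. Without saline mouse 1 the difference was -0.116 percentage points, and without FMT mouse 3 it was also -0.116.

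**Figure D1:**
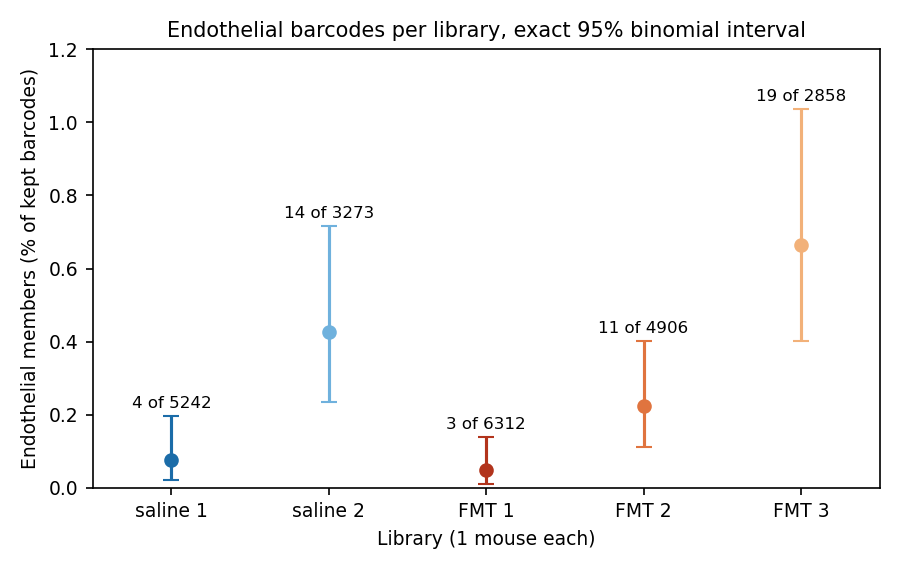
Percentage of kept barcodes that met the endothelial rule (y axis) in each of the 5 libraries (x axis, 1 mouse each), with the exact 95% binomial interval as a bar and the counts above it. FMT mouse 1, at 0.0475%, and FMT mouse 3, at 0.665%, lie on either side of both saline mice.

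Members were shallower than the other barcodes of their libraries. The libraries held 15333445 to 45309178 UMIs, and kept barcodes had a median of 3330 to 5093 UMIs by library. Members had a median of 1895 UMIs (range 524 to 46230), 1052 genes and 0.934% mitochondrial UMIs. By library, the members' median was 1554, 2403, 2672, 1096 and 1972 UMIs, in each case below that of the kept barcodes. Summed over members, the libraries gave 6587, 82581, 6423, 24613 and 42904 UMIs, so that 1 UMI stood for 152, 12.1, 156, 40.6 and 23.3 CPM (UMIs of a gene per 1000000 member UMIs of a library). Any pair of libraries shared 3 to 12 barcodes, and no member's barcode occurred in another library. Doublets were not called. The immune criteria of the rule removed 12 barcodes that met the endothelial criterion, and whether these were of mixed type was not tested. Barcodes of very high UMI count were left out in an alternative.

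Near the threshold, 4 members had exactly 3 rule UMIs, 1 kept barcode missed the rule with 2 UMIs from 2 genes, and 2 missed it with 3 or more UMIs from a single gene. A further 12 barcodes met the endothelial criterion but carried immune UMIs, 9 of them Cd3 UMIs. Of these 12, 9 had 22 to 94 rule UMIs together with 34 to 116 UMIs on the endothelial identity list described below, while members had up to 75 and 96. Their UMI totals were 4031 to 10805, with a median of 7146. At the other end, 21030 kept barcodes had no UMI of any rule gene.

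Plvap was detected in 41 members and gave 25, 237, 21, 133 and 206 UMIs in saline mice 1 and 2 and FMT mice 1, 2 and 3. Egfl7 was detected in 48 members, with 22, 68, 22, 56 and 114 UMIs. Emcn was detected in 44 members, with 14, 94, 13, 40 and 61 UMIs. All 5 libraries thus held members with each of these genes. Pecam1 gave 4, 21, 8, 25 and 27 UMIs and Kdr 5, 48, 7, 25 and 37 UMIs, each in 36 members. A median member had 19 rule UMIs (range 3 to 75), and 24 members had all 5 genes.

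Endothelial genes that the rule did not use were present in nearly every member. Of a list of 20 such genes, a member had a median of 12, 34 members had 10 or more and 46 had 3 or more. Eng, a co-receptor for TGF-beta family ligands, was detected in 84.3% of members, against 0.0356% of B cells and 0.0756% of proximal tubule cells in the same libraries. Flt1, the receptor that binds vascular endothelial growth factor most tightly, was detected in 78.4%, against 0.00840% of 11899 proximal tubule cells and 0 of 2808 B cells, which allows a UMI in up to 0.107% of B cells at their depth. Sox18, an endothelial transcription factor, was detected in 74.5% and in neither of these cell types, which allows a UMI in up to 0.107% of B cells and 0.0252% of proximal tubule cells. Such limits concern cells with a UMI, not cells that express the gene. Cdh5, the cadherin of endothelial junctions, was detected in 70.6%, against 0.178% of B cells and 0.0252% of proximal tubule cells. These backgrounds came from deeper cells, since B cells had a median of 2465 to 3576 UMIs by library and proximal tubule cells 4236 to 6406. B cells were defined with under 3 UMIs of the rule genes and proximal tubule cells with 0, which can lower these backgrounds.

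When every kept barcode was thinned to 500 UMIs, a depth that no barcode fell below, 28 of 51 members still had Eng, against 15 of the 22540 other kept barcodes. Flt1 remained in 26 members and 16 others, Sox18 in 21 and 7, and Cdh5 in 14 and 3. Tie1, a partner of the angiopoietin receptor, remained in 12 members and in 0 of the 22540 others, which limits barcodes with a UMI at this depth to 0.0133% of them. Unthinned, 0.0532% of the others had a Tie1 UMI. Icam2, an adhesion molecule, did not mark endothelium alone: it remained in 14 members and 193 others, 110 of these among the B cells. Genes outside the rule were ranked if they had at least 20 UMIs in members and a UMI in members of every library. Among these, the genes most confined to members were Sparcl1, Sox17 and Gpihbp1. Gpihbp1, which carries lipoprotein lipase to the capillary lumen, gave 223 UMIs in the 51 members and 30 in all other kept barcodes. The transcription factor Sox17 gave 42 and 4, and the matricellular protein gene Sparcl1 gave 22 and 1. These ratios describe how the barcodes were gated and have no test.

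At least 0.1% of UMIs were on the identity list in 48 of the 51 members. Some of these were thin: members 5, 11 and 13 of FMT mouse 3 had 4, 3 and 3 such UMIs. The 3 members under 0.1% are called low-identity members, and their leading genes were those of other cells. Member 14 of saline mouse 2 was the largest, with 46230 UMIs and 5508 genes. It had 325 UMIs of Car1, a carbonic anhydrase of erythroid precursors, 15 of the erythroid transcription factor Gata1 and 257 on the cell cycle list, against 7 on the identity list. It alone supplied 56.0% of the member UMIs of its library. Member 6 of saline mouse 2 and member 15 of FMT mouse 3 had 0 identity UMIs, 3 rule UMIs each and 45.2% and 19.2% mitochondrial UMIs. They were led by Gpx3, the plasma glutathione peroxidase that proximal tubule cells secrete, with 83 and 271 UMIs. Several results that rest on these 3 barcodes are given with and without them, a choice made after their values had been seen.

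**Figure D2:**
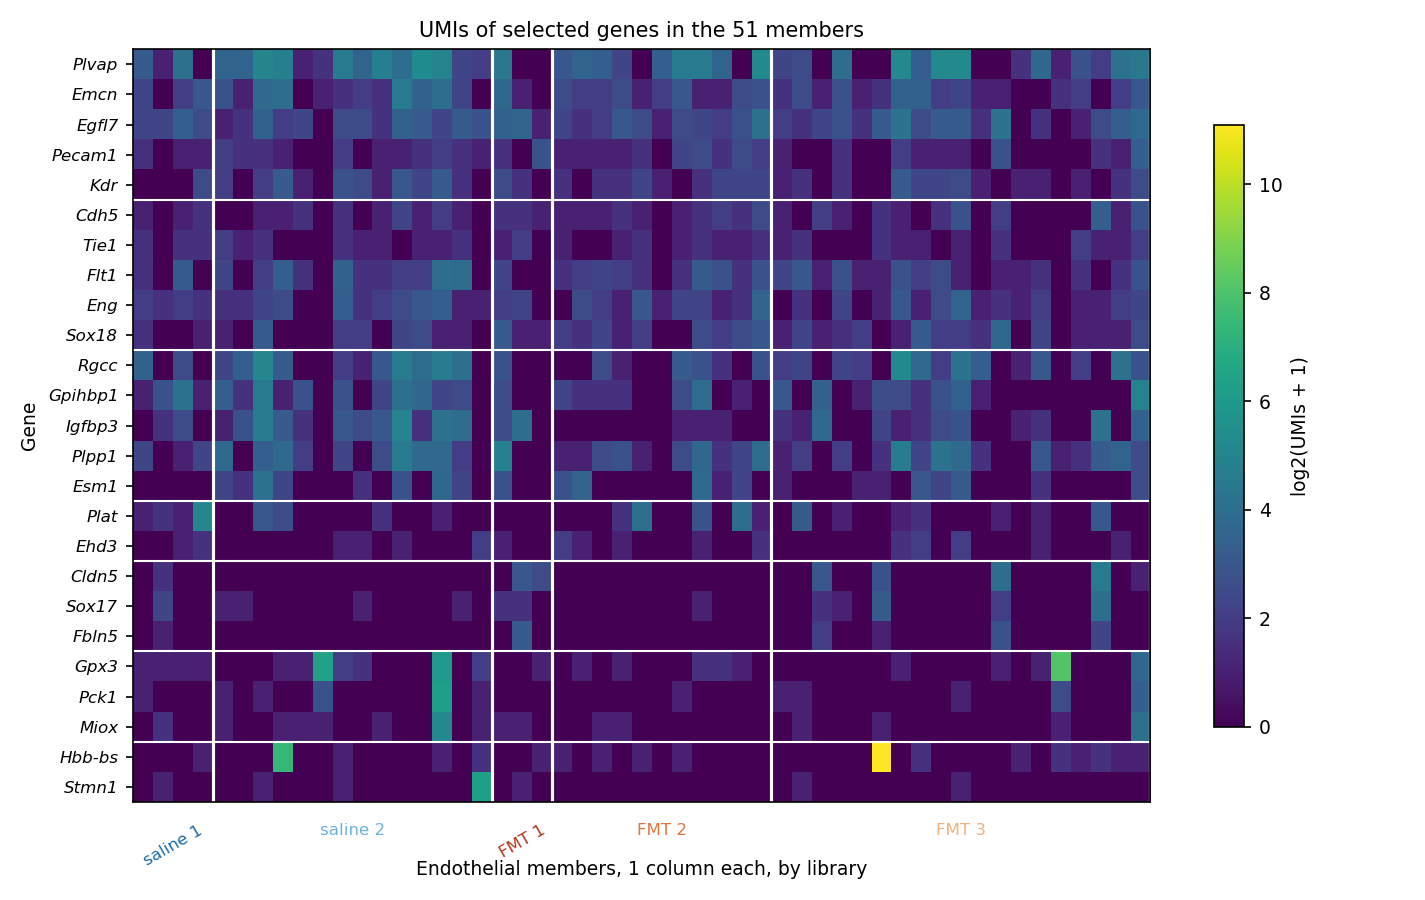
UMIs on a log2(UMIs + 1) scale (colour) of 25 genes (rows) in the 51 members (columns, grouped by library). From the top, white lines part the rule genes, identity genes, peritubular capillary, glomerular capillary and arterial genes, proximal tubule genes, and Hbb-bs with Stmn1. Cldn5, Sox17 and Fbln5 occur together in a few columns, mostly with no Plvap, and Gpx3 is highest in the 2 members with 0 identity UMIs.

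Most members carried genes of peritubular capillaries. The list of 10 such genes had 1619 UMIs, and 44 members had 5 or more of them. Among its genes, Rgcc, a cell cycle regulator of endothelium, gave 15, 142, 6, 28 and 130 UMIs in the 5 libraries, in 34 members. Igfbp3, which binds insulin-like growth factors, gave 7, 124, 20, 3 and 64 UMIs in 31 members. FMT mouse 2 was the low library for Igfbp3, with 3 UMIs over 11 members (122 CPM), while the others lay between 1063 and 3114 CPM, or up to 3737 CPM in saline mouse 2 without its 2 low-identity members. Esm1, a secreted proteoglycan of growing capillaries, gave 0, 51, 6, 35 and 29 UMIs. As a share of UMIs in the 48 members, the list made up 1.21% and 2.15% in the saline libraries and 1.40%, 0.906% and 1.24% in the FMT libraries, so the groups overlapped.

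Arterial genes were concentrated in part of the members. Of 11 members with 5 or more UMIs on a list of arterial genes, 7 had Cldn5, which is not on that list, and 5 had Plvap. Cldn5, the main claudin of continuous endothelial tight junctions, was detected in 8 members and gave 2, 0, 12, 0 and 52 UMIs. It was thus at 0 in saline mouse 2 and FMT mouse 2, which held 12 and 11 of the 48 members. The 8 Cldn5 members had 34 UMIs of Sox17 (1376 CPM), a transcription factor of arterial endothelium, and the 40 others had 8 (91.5 CPM). They had all 23 UMIs of Fbln5, a protein of elastic fibres, and all 73 UMIs of Mgp, the matrix Gla protein that restrains calcification, the latter in 2 members. Plvap was at 1012 CPM in them, against 6757 CPM in the 40 others, and Rgcc at 243 against 3601 CPM. Member 19 of FMT mouse 3, which had 1 UMI of Cldn5, held 21 of their 25 Plvap UMIs and all 6 Rgcc UMIs. The 7 members with at least 2 Cldn5 UMIs had Plvap at 198 CPM and 0 UMIs of Rgcc. Not every peritubular gene was lower: Igfbp3 was at 2468 CPM in the 8 members and 1795 CPM in the 40 others. Gpihbp1 was at 2023 and 1978 CPM, and at 1037 CPM in the 7. Egfl7 was at 2590 and 2424 CPM in these sets of members. Over the 48 members the arterial list of 13 genes made up 0.106% and 0.0542% of UMIs in the saline libraries and 0.638%, 0.110% and 0.210% in the FMT libraries. The groups did not overlap, but saline mouse 1 and FMT mouse 2 differed by less than the value of 1 UMI in either library. Cldn5 was detected in 0.0266% of the other kept barcodes. The sets of 8, 7 and 40 members were chosen by Cldn5 itself, after its values were seen, and share libraries, so these values carry no test.

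Members without Plvap mostly had either Cldn5 or Plat. Of the 10 members with no Plvap UMI, 5 had Cldn5. Another 3 had 34, 16 and 14 UMIs of Plat, tissue plasminogen activator, which dissolves fibrin and marks glomerular capillaries in mouse kidney. These were 1 member of saline mouse 1 and 2 of FMT mouse 2. The last 2, both from FMT mouse 3, had 2 identity genes each. Over all members Plat gave 38, 15, 0, 39 and 21 UMIs, in 20 members, and 8 members had at least 5. Ehd3, another glomerular gene, did not gather in the same barcodes: the 8 members with at least 5 Plat UMIs had 3 Ehd3 UMIs (159 CPM) and the 40 others had 22 (236 CPM). Of 8 podocyte genes 5 were detected, with 67 UMIs in 30 members. They were led by Podxl, which endothelium makes too, in 25 members, followed by Cdkn1c, Thsd7a and Synpo. Nphs1 and Wt1 were among the 3 at 0 in all members.

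Of the lymphatic list, Flt4 was detected, with 1 UMI in each of 12 members, and the other 5 genes, Prox1, Lyve1, Pdpn, Mmrn1 and Reln, were at 0. Flt4 is also made by fenestrated blood capillaries. The venous list had 61 UMIs, led by Ephb4, a receptor of venous endothelium, in 19 members. Of 12 genes of mural cells and fibroblasts 11 were at 0, and Gata3 gave 6 UMIs in 1 member. That barcode, of FMT mouse 2, had 8858 UMIs, 13 identity genes and 5 UMIs on the T and NK cell list. The other 5 UMIs on the T and NK list were in member 14 of saline mouse 2, which also held 40 of the 61 UMIs on the monocyte and macrophage list. The B cell list had 2 UMIs in all. The rule had set Cd79a, Cd3d, Cd3e and Cd3g to 0 and Lyz2 to under 2, so these immune counts were partly fixed by selection.

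The members carried 1066 UMIs on a list of 20 proximal tubule genes, and most of that RNA was in few barcodes. The 5 members with over 30 such UMIs held 942 of them (88.4%). These were the 3 low-identity members, with 132, 34 and 317 UMIs, and 2 others. The 34 UMIs, in the barcode with 46230 UMIs, were 0.0735% of its RNA, so that it passed through its size and not its share. The other 4 each had over 1%. Member 12 of saline mouse 2 had 376 proximal tubule UMIs among 9963, with 17 of the 20 identity genes, and member 19 of FMT mouse 3 had 83 among 4462, with 16 identity genes. The other 46 members had at most 10 each, 124 in all or 0.127% of their UMIs, and 6 had none.

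Summed over members, proximal tubule genes made up 0.228% and 0.693% of UMIs in the saline mice and 0.218%, 0.134% and 1.01% in the FMT mice. The high values were those of saline mouse 2 and FMT mouse 3, which held all 5 barcodes named above, and the groups overlapped. The means were 0.460% ± 0.329 (SD, n = 2) and 0.453% ± 0.482 (SD, n = 3), with an exact permutation p = 0.9. Without the 3 low-identity members the shares were 0.228%, 1.22%, 0.218%, 0.134% and 0.278%, and the difference between groups was -0.516 percentage points (exact permutation p = 0.2). The sign of the difference turned when saline mouse 2, FMT mouse 1 or FMT mouse 2 was left out, at 0.225, 0.110 and 0.152 percentage points.

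B cells of the same libraries, which do not make these genes, gave the level of free RNA and of mixed barcodes. Their pooled share was 0.794%, 1.44%, 2.09%, 1.54% and 1.14% in the same order, above that of the members in 5 of 5 libraries. The mean difference, members minus B cells, was -0.945 percentage points, with a two-sided exact sign permutation p = 0.0625, the smallest that 5 libraries allow. Without barcodes above the 95th percentile of UMIs of their library the difference was -0.536, with members below in 3 of 5 libraries (exact sign permutation p = 0.312). Proximal tubule cells themselves had 4.71% to 6.19% of UMIs on the list. The order turned when each library was summarised by its median cell in place of its sum, a choice made after the data were seen. The median member then had 0.205%, 0.154%, 0.175%, 0.184% and 0.0875% and the median B cell 0.103%, 0.104%, 0.145%, 0.112% and 0.0754%. Members were above B cells in 5 of 5 libraries, by 0.0532 percentage points on average (exact sign permutation p = 0.0625). By library the differences were 0.102, 0.0494, 0.0303, 0.072 and 0.012 percentage points. They rest on few UMIs, since the median member had 2 UMIs on the list among a median of 1895 in all. B cells were deeper, with a median of 2465 to 3576 UMIs by library.

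**Figure D3:**
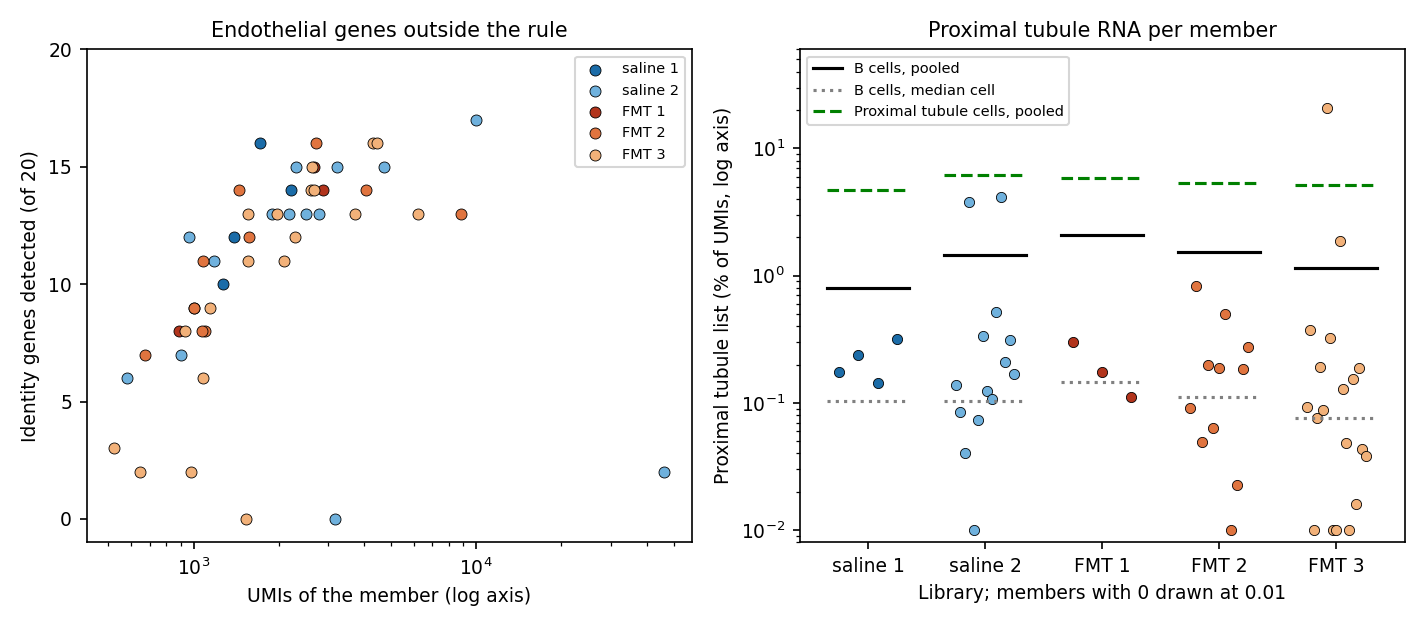
Left, the number of 20 identity genes detected (y axis) against UMIs on a log axis (x axis) for each of the 51 members, coloured by library. Right, the percentage of each member's UMIs on the proximal tubule list (y axis, log) by library, with lines for the pooled B cells, the median B cell and the pooled proximal tubule cells. On the left the 2 members with 0 identity genes lie far below the others of their depth. The low-identity member with 46230 UMIs has no other member near its depth. On the right 1 member of FMT mouse 3 reaches 20.7%.

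Cyp4b1, a cytochrome P450 that was placed on the proximal tubule list, was spread differently from the rest of it. It lies on chr4:115624725-115647723 on the minus strand. It gave 47 UMIs in 17 members, and 43 of them were in the 46 members with at most 10 list UMIs. There it made up 34.7% of list UMIs, against 0.425% in the 5 members with over 30, 0.658% in B cells and 0.690% in proximal tubule cells. Gpx3 went the other way, with 433 of its 455 UMIs in those 5 members. With Cyp4b1 left out and the median cell used, the difference between members and B cells was 0.00551 percentage points, members were below B cells in 3 of 5 libraries, and the exact sign permutation p was 0.688.

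**Figure D4:**
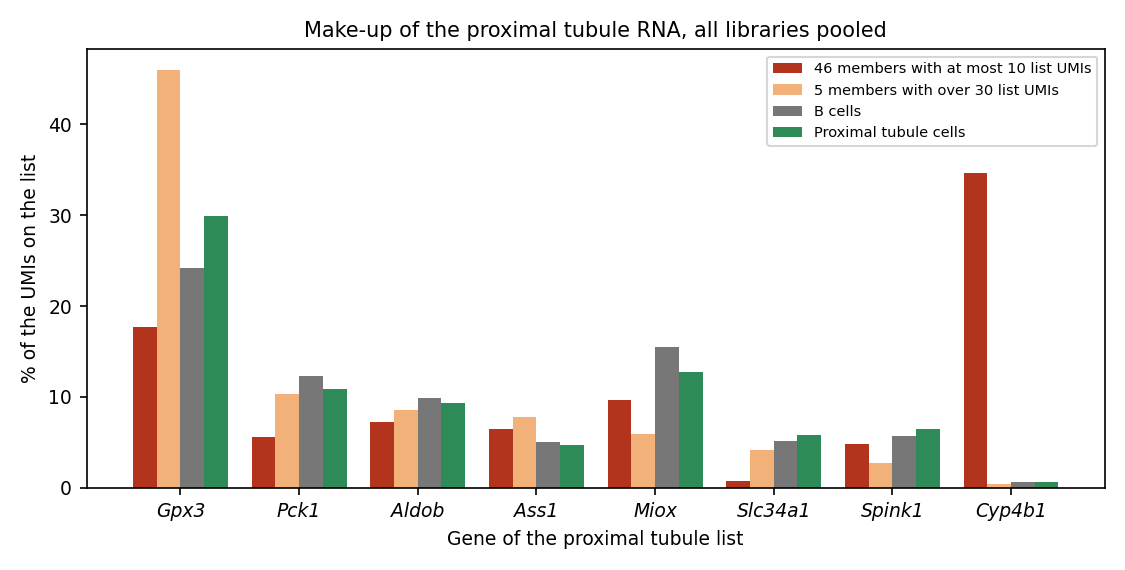
Share of the proximal tubule list's UMIs that fell on each of 8 of its genes (bars, % of list UMIs, y axis from 0) in the 46 members with at most 10 list UMIs, the 5 members with over 30, B cells and proximal tubule cells, all libraries pooled. Cyp4b1 holds 34.7% in the first set and under 1% in the other three.

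Haemoglobin RNA stood out in 2 barcodes. Member 4 of saline mouse 2 had 19.4% of its 2788 UMIs on haemoglobin genes, with 13 identity genes. Member 6 of FMT mouse 3 had 68.2% of its 6212 UMIs on haemoglobin genes, with 13 identity genes and 6 UMIs of Cldn5. The red cell list took 10.3% of the UMIs of the FMT mouse 3 members that had endothelial identity, against 1.67% in saline mouse 2 and 0.0156% to 0.0528% in the other 3 libraries. Its part in the level of other genes in that library was not tested beyond the values given.

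Among receptors and pathways of the vessel wall, Tie1 and Tek were detected in 33 and 30 members. Notch1 was detected in 23 and its ligand Dll4, which restrains sprouting, in 16. Of 22 UMIs of the Notch ligand Jag1, 72.7% were in 1 member. Ednrb, the endothelin B receptor that clears endothelin and drives nitric oxide release, gave 2, 48, 2, 8 and 19 UMIs. Klf2, the transcription factor induced by blood flow, gave 10, 60, 9, 17 and 54 UMIs in 34 members. Fabp4, a fatty acid carrier of capillary endothelium, gave 45, 196, 11, 141 and 233 UMIs in 42 members.

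Of 16 genes on the leukocyte adhesion list 10 were detected, with 301 UMIs in 44 members. By UMIs it was led by Cd47, a signal against engulfment that most cells make, with 90 UMIs in 32 members, and Icam2, with 68 in 31. Cd34, a sialomucin that L-selectin can bind, gave 52 UMIs in 24 members. The genes induced on inflamed vessels had few UMIs. Icam1, the ligand of leukocyte integrins, gave 19 UMIs in 15 members, and Vcam1, another such ligand, gave 7 in 5 members. Selp, the P-selectin that lets leukocytes roll, had 1 UMI, and Sele, the E-selectin, had 0. Among the genes of adenosine and inosine handling, 13 of 18 were detected, with 170 UMIs in all. Ada, which turns adenosine into inosine, gave 2, 1, 0, 11 and 5 UMIs, and Pnp, which splits inosine, gave 0, 29, 0, 2 and 13, with 43.2% of its UMIs in the large barcode of saline mouse 2.

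Interferon-induced genes were present in every member, with 2468 UMIs on a list of 36. By UMIs the list was led by Ly6a and Ly6c1, surface proteins that endothelium also makes without interferon, and Ifitm3, a membrane protein that blocks virus entry. The list made up 1.79% and 1.00% of member UMIs in the saline libraries and 1.93%, 1.92% and 2.16% in the FMT libraries. Without the 3 low-identity members it made up 1.79% and 2.13% against 1.93%, 1.92% and 2.23%, so the groups then overlapped. MHC class I genes were at 1.26% and 1.41% against 2.21%, 1.65% and 1.34% in the 48 members, again with overlap. Heat shock genes were at 0.258% and 0.666% against 0.249%, 0.370% and 0.345% in all members, and saline mouse 2 fell to 0.359% in the 48. On the cell cycle list saline mouse 2 had 0.328% with its 2 low-identity members and 0.0422% without them, within the 0.0311% to 0.137% of the other mice.

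**Figure D5:**
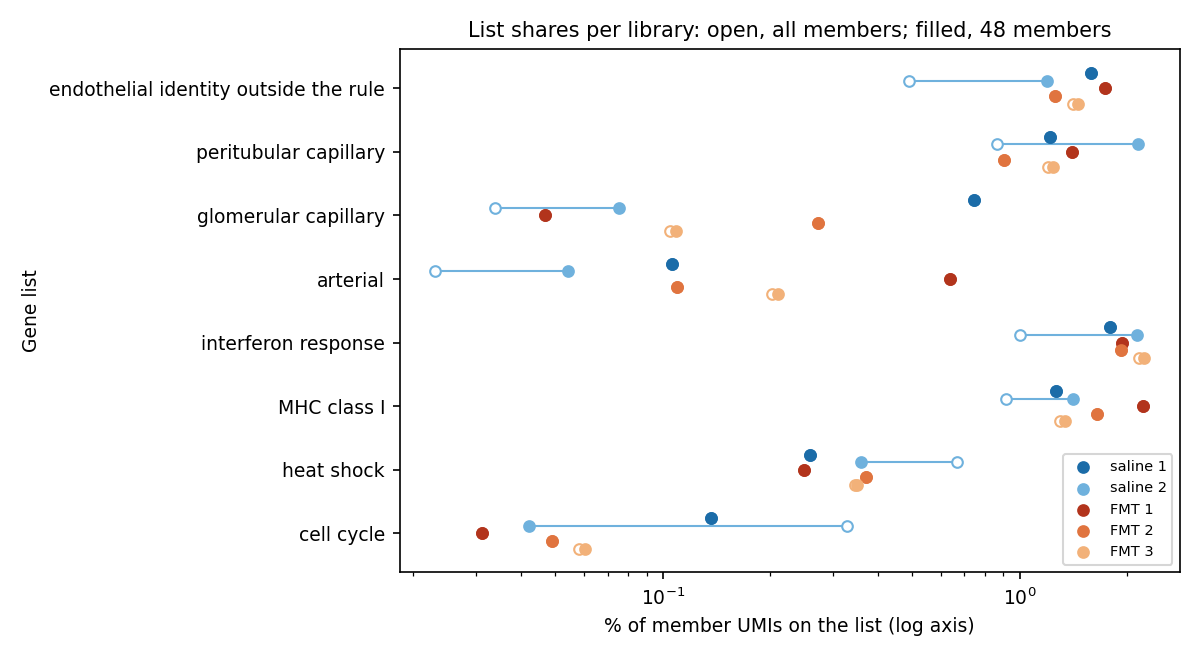
Percentage of member UMIs on 8 gene lists (x axis, log) in each library (colour), for all 51 members (open points) and for the 48 with endothelial identity (filled points), joined by a line. Saline mouse 2 moves on every list shown, on the cell cycle list from 0.328% to 0.0422%, and the filled points of saline and FMT mice overlap on 7 of the 8 lists, the arterial list being the exception.

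Genes were set to be tested between FMT and saline only in libraries with at least 10 members, which left saline mouse 2 alone in its group, so that test was not run. A fit over all 5 libraries, added after the counts were known, is given in its place. The edgeR quasi-likelihood test called 0 of 453 tested genes (0%) at an adjusted p under 0.05, and the smallest adjusted p was 0.265. At an unadjusted p under 0.05 there were 36 genes (7.95%), DESeq2 called 0, and the values of 109 genes (24.1%) did not overlap between groups. Without FMT mouse 2, 3 genes passed, Mgp, Cldn5 and Igfbp7, all higher in the remaining 2 FMT mice, while the mouse left out had 0 UMIs of each. Without saline mouse 1 a single gene passed, Car1, whose 325 UMIs were all in the large barcode of saline mouse 2, and so it did with no filter on low counts. In bulk sums of so few cells, a different mix of vessel types and a different level per cell cannot be told apart.

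Of the genes with the smallest p, Ctgf, a matrix protein induced by tension and TGF-beta, gave 1, 2, 6, 18 and 26 UMIs. After TMM scaling this was 150 and 23.6 CPM in the saline libraries and 912, 694 and 679 CPM in the FMT libraries, with no overlap. The log2 fold change was 4.16 ± 0.93 (SE) with an edgeR adjusted p of 0.265, and 3.11 (adjusted p = 0.405) without the 3 low-identity members. Ehd4, a protein of endosome recycling, gave 1, 15, 6, 20 and 45 UMIs and a log2 fold change of 2.46 ± 0.63 (edgeR adjusted p = 0.397), which fell to 1.34 in the 48 members. Sox18 gave 3, 26, 10, 33 and 52 UMIs and 1.97 ± 0.61 (edgeR adjusted p = 0.517), which fell to 0.98. None of these 3 genes passed the threshold.

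Mgp was at 0 in both saline mice and in FMT mouse 2 and gave 51 and 22 UMIs in FMT mice 1 and 3, so the groups overlapped and no fold is given. The tetraspanin gene Cd9 gave 3, 23, 8, 26 and 37 UMIs and a log2 fold change of 1.71 ± 0.57 (edgeR adjusted p = 0.517), which fell to 0.75 in the 48 members. The 5 genes on the lower side with the smallest p were Hmgb2, Npm1, Ncl, Rpl4 and Rps6, of chromatin, nucleolus and ribosome. Hmgb2 gave 3, 67, 0, 4 and 4 UMIs, and 66 of the 67 were in the large barcode of saline mouse 2. Npm1 gave 2, 192, 0, 13 and 7 UMIs, with 172 of the 192 in the same barcode. In the 48 members the log2 fold change of Rps6 moved from -1.54 to -0.06 and that of Rpl4 from -1.38 to -0.34.

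No listed gene passed the threshold in either direction. Of the identity list 15 of 20 genes were tested, with a median log2 fold change of 0.72, and of the interferon list 11 of 36, with a median of 0.89, against 0.07 over all 453 genes. Both groups of values include the low-identity barcode that supplied 56.0% of the UMIs of saline mouse 2. Of the peritubular list 8 of 10 genes were tested, with a median of 0.22. Among its members Igfbp3 had a log2 fold change of 0.22 ± 0.91 and Gpihbp1 one of -0.75 ± 0.71, both within 2 SE of 0.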

How the data were processed

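Raw UMI counts per gene and barcode were used as the authors deposited them. Per the file headers they came from Cell Ranger 4.0.0. The submitters' processing notes instead give version 2.1.1, with the mm10 build. The labels call the libraries 10x Genomics, while their extraction text describes a bulk RNA kit. The 27998 genes were kept apart by identifier, and 27645 were found in GENCODE M21. The members and gene lists were chosen with earlier results of these data known.

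UMIs of members were summed per library. Shares were compared with two-sided exact permutation tests over libraries, with exact (Clopper-Pearson) 95% intervals per library. B cells had at least 3 UMIs from at least 2 of Cd79a, Cd79b and Ms4a1, and proximal tubule cells at least 5 from at least 2 of Slc34a1, Lrp2, Miox, Slc22a12 and Ttc36. B cells also had no UMI of Cd3d, Cd3e or Cd3g, under 2 of Lyz2 and under 3 of the rule genes. Proximal tubule cells also had no UMI of Ptprc or of a rule gene. Genes were fitted with edgeR 4.0.16 in R 4.3.3 (TMM, filterByExpr, Benjamini-Hochberg over all tested genes, threshold 0.05), and with DESeq2 1.42.0 as an alternative. The rule genes and the immune genes of the rule were left out of the test. The SE was taken from the fold change and its F statistic. The script was tested on simulated data. Python 3.11.15, numpy 2.4.6, scipy 1.17.1 and pandas 2.3.3 were used. A planned test of whether endothelial and proximal tubule cells respond differently was not run, for the same lack of members.

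Genes were named by a rule: the 5 rule genes, the 5 smallest p per direction where fewer than 5 genes were called, up to 4 genes of each list by UMIs, and the genes most confined to members. Further genes were picked with their values in view. Pairs of libraries differed by a chi-square of at least 2.44 per gene. The sums came from different cells in each library, so this value cannot decide whether the samples were separate. All 5 libraries were taken as separate samples because they were labelled so.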

Additional observations from a re-analysis of the deposited data

How the results depend on the processing

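The share of members among kept barcodes kept its direction under 9 of 11 alternatives. It reversed without saline mouse 1 or FMT mouse 3, and ranged from -0.116 to 0.236 percentage points when mice were left out in turn. The difference in proximal tubule RNA between groups reversed under 4 of 14 alternatives. Leaving out Kap, which had 0 UMIs in members, could not change it. Nor could leaving out barcodes over 50% proximal tubule UMIs, since the highest member had 20.7%. Both gave the main value of -0.00721 percentage points. The difference was 0.0710 percentage points with barcodes of at least 500 genes and under 20% mitochondrial UMIs. When mice were left out in turn it was -0.284 to 0.225, with 0.225, 0.110 and 0.152 without saline mouse 2, FMT mouse 1 and FMT mouse 2. Members minus B cells stayed below 0 under 12 of 14 alternatives, of which the setting at 50% left it at its main value of -0.945. It was -1.15 to -0.714 when mice were left out in turn and -0.536 (below in 3 of 5 libraries) without barcodes of the highest UMI counts. It was 0.0532 by the median cell and 0.00551 by the median cell without Cyp4b1. The cause of these changes was not tested.

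The number of called genes was 0 under 13 of 16 alternatives. It was 1 with no filter on low counts, where 10516 genes were tested, and 0 to 3 when mice were left out in turn, with 1 (Car1) without saline mouse 1 and 3 without FMT mouse 2. Igfbp7, Mgp and Cldn5, the last 3, had adjusted p of 0.0118, 0.00995 and 0.0186 there. With the replicate number as a block, 0 genes were called. The deviations of equally numbered mice correlated at 0.192 and 0.145, over 2 pairs, and no label says that a number marks a shared origin. Of the 10 genes named by p, none reversed in the fits where it passed the filter. They were chosen on the same counts, so a kept sign is no separate support. Rps6 kept its sign at a log2 fold change of -0.00184 without barcodes above the 95th percentile of UMIs. Fits where the gene passed were 12 of 16 alternatives for Hmgb2, which had no value without the low-identity members. They were 13 for Mgp, Ncl and Npm1, and 16 for the others.

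Depth limits these results: 51 cells, 3 and 4 of them in 2 of the libraries, leave 1 UMI worth over 150 CPM there, so most genes could not be compared between groups. Libraries with at least 20 members did not exist, and that alternative was not run, nor were those of the test that needed 10.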
